A study of Mus musculus with 6 samples.

Results

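The regulators of G-protein signalling described here are Rgs1, Rgs2, Rgs3, Rgs4, Rgs5, Rgs10, Rgs16 and Rgs17, which are 8 of the 31053 genes in the count matrices. They were chosen by gene symbol, as members of one gene family, with earlier results of these data known. Another 15 genes listed with the family were followed only as partners. Their UMIs were counted in single stromal vascular cells of inguinal white adipose tissue (iWAT) from male C57BL/6 mice, after depletion of CD45+ immune cells and with the inguinal lymph node removed. Young mice were 9 weeks old and aged mice were 57 weeks old. All mice were first acclimated to 30 °C. The TN (thermoneutral) mice stayed at 30 °C, the 3D cold mice spent their last 3 days at 6 °C and the 14D cold mice their last 14 days. One library was made for each age at each temperature, 6 in all, so every age comparison rested on 3 young and 3 aged libraries and every temperature on 2. The methods state that tissue of different mice was kept apart unless otherwise noted and note no pooling for these libraries. They do not give a number of mice per library or the supplier of the mice of each age. The p-values therefore measure only spread among these libraries. No age at a given temperature had a replicate library. In tests by age or temperature this spread thus mixes library noise with age differences that vary by temperature. The edgeR test also draws on the spread of other genes, so a small p-value does not rest on the counts of that gene alone.

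RGS proteins act directly below G-protein-coupled receptors. They bind the GTP-loaded G alpha subunit and speed its hydrolysis of GTP, which ends the signal sooner. In the mural cells of blood vessels, which are the pericytes of capillaries and the smooth muscle cells of arterioles and venules, the receptors in question include those for noradrenaline, angiotensin, endothelin, thromboxane and sphingosine 1-phosphate, and they set vascular tone. Rgs5 is widely used as a pericyte marker. Rgs2 is known for acting on Gq and for its part in blood pressure control, and Rgs4 for acting on Gi and Gq. Rgs1 and Rgs10 are best known from leukocytes and from macrophages and microglia, and Rgs17 belongs to a separate branch of the family that acts on Gz.

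Rgs1, Rgs2, Rgs4, Rgs5 and Rgs16 all lie on mouse chromosome 1, Rgs3 on chromosome 4, Rgs10 on chromosome 7 and Rgs17 on chromosome 10 (GRCm38). Rgs5 (chr1:169655501-169695813, plus strand) and Rgs4 (chr1:169741477-169747642, minus strand) point towards each other with 45663 bases between them. Rgs2 (chr1:143999338-144004161) and Rgs1 (chr1:144242296-144249242), both on the minus strand, lie 238134 bases apart, and Rgs16 is at chr1:153740349-153745468 on the plus strand. RefSeq promoter entries (GRCm38.p6) matched 7 of the 8 members, with 8 entries because Rgs3 has more than one start, and Rgs1 was the member without one. Each of 3 short motifs, the CCAAT box, the TATA box written as TATAAA and the core of the cAMP response element written as TGACG, was searched on both strands in the 250 bases before each start. Matches of different motifs did not overlap in the members. CCAAT was present in 4 of the 8 entries, those of Rgs2, Rgs4, Rgs5 and Rgs16, against 33.8% of all 32851 promoters. TATAAA was present in 3 entries (Rgs4 and both of Rgs3) against 12.4% of all promoters, and TGACG in 2 (Rgs2 and Rgs4) against 17.8%. The 120 bases before the start are shown for the 4 members on chromosome 1 that changed in mural cells, 5′ to 3′ on the gene's own strand, with CCAAT or its reverse complement ATTGG in capitals. Its first base lay 94, 68, 67 and 57 bases before the start of Rgs2, Rgs16, Rgs5 and Rgs4, respectively. The libraries count transcripts from their 3′ ends and did not measure these windows.
Rgs2, chr1:144004150-144004269, minus strand: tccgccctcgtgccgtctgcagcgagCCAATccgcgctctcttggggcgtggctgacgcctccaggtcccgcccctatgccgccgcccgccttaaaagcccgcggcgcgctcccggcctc
Rgs16, chr1:153740233-153740352, plus strand: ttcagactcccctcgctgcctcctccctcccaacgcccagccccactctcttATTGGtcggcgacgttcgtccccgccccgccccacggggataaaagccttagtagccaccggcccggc
Rgs5, chr1:169655381-169655500, plus strand: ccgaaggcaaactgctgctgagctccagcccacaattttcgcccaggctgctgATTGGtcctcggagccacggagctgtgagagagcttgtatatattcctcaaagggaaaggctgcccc
Rgs4, chr1:169747643-169747762, minus strand: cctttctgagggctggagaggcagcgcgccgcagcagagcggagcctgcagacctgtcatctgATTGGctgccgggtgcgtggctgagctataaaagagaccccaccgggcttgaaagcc

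Cells were classed by counting how many of 10 marker genes of each class had a UMI, and no RGS gene was a marker. A class needed at least 3 of its markers and a lead of at least 2 over the next class. The gate held 3075 mural cells (206 to 886 per library), of which 516 were pericyte-like (40 to 136) and 1983 smooth muscle-like (SMC-like, 132 to 564), and the rest had no clear lead of either 8-gene sub-list. It also held 6157 endothelial-like cells, 23344 Dpp4+ fibroblast-like, 20314 Icam1+ preadipocyte-like and 1010 Cd142+ fibroblast-like cells (the 3 classes of adipose stem and progenitor cells, ASPCs, called Dpp4+, Icam1+ and Cd142+ cells below), 444 immune-like cells and 169 Schwann-like cells. The label was checked against 8 mural genes outside the 10 markers of the mural gate (Mcam, Cspg4, Des, Pdgfrb, Tagln, Acta2, Mylk and Gja4, of which Mylk is a marker of the SMC-like sub-list). Summed per library, they held 3418 to 5538 CPM in pericyte-like and 25386 to 29483 CPM in SMC-like cells, against 537 to 924 CPM in endothelial-like, 341 to 516 CPM in Icam1+ and 153 to 293 CPM in Dpp4+ cells, where all 8 had UMIs as well. ASPC marker genes kept out of the gate summed to 3509 to 5569 CPM in pericyte-like cells, in the range of their mural genes. They summed to 1608 to 2358 CPM in SMC-like and to 72875 to 95013 CPM in Icam1+ cells. The pericyte-like label was thus less clean than the SMC-like one by this check, and the margins of the gate were not sharp. A stricter gate (at least 4 markers and a lead of 3) left 23 to 59 pericyte-like and 57 to 344 SMC-like cells per library. Libraries held 52068837 to 88508349 UMIs, and the aged 14D cold library stood apart with a median of 2588 UMIs per barcode against 6232 to 8954 in the others. Any pair of libraries shared 30 to 44 cell barcodes. Levels are given in counts-per-million (CPM), over all UMIs of the class in a library, and they are compared between classes and libraries for one gene, not between genes, because 3′ UMI counts carry no correction between genes.

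In mural cells, Rgs5 and Rgs16 were highest in the pericyte-like cells and Rgs2 in the SMC-like cells, and Rgs4 was high in both. Rgs5 stood at 3396, 3811 and 5828 CPM in the pericyte-like cells of the young TN, 3D cold and 14D cold libraries and at 4557, 4381 and 5005 CPM in those of the aged libraries. In SMC-like cells it stood at 129, 148 and 208 CPM in the young and 62.1, 133 and 153 CPM in the aged libraries. The lowest pericyte-like value was thus far above the highest SMC-like value. Tested with the library as a block, Rgs5 was 4.75 ± 0.16 (SE) log2 units higher in pericyte-like cells (edgeR adjusted p = 7.5053e-19). Rgs16 was higher by 5.05 ± 0.17 log2 units (edgeR adjusted p = 1.5006e-18) and Rgs3 by 1.96 ± 0.21 (edgeR adjusted p = 1.0616e-08). Rgs2 was lower by 3.22, with a log2 fold change of -3.22 ± 0.29 (edgeR adjusted p = 3.3915e-10). The log2 fold change of Rgs4 was -0.30 ± 0.14 (edgeR adjusted p = 0.0751). These 4 calls among the 5 members tested stand beside 51.9% of all 8218 genes called in the same comparison. All 4 were kept, in the same direction, under each of 14 alternatives, which included leaving out each library in turn.

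Rgs4 was shared by both mural classes. Its level was 237, 567 and 761 CPM in the pericyte-like cells of the young libraries and 537, 652 and 781 CPM in those of the aged libraries. SMC-like cells held 528, 583 and 700 CPM in the young and 457, 520 and 583 CPM in the aged libraries. By CPM the pericyte-like value was the higher one in 4 of 6 libraries, and the ranges overlapped. The edgeR log2 fold change above, which uses TMM scaling rather than CPM, had the opposite sign. Rgs4 passed between the classes in 4 of 15 fits, though not in the reported one. Rgs2, in contrast, was higher on the SMC-like side of the mural gate, at 98.3, 80.2 and 72.1 CPM in the young and 119, 74.7 and 92.3 CPM in the aged libraries. Only 22 Rgs2 UMIs were counted over all 516 pericyte-like cells, and 3 of 6 libraries had none there, which allows 8.33 to 22.7 CPM in those 3 libraries.

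Shares of cells with a UMI gave the same picture after each cell was thinned to 2000 UMIs and shallower cells were left out (65 of 516 pericyte-like and 46 of 1983 SMC-like cells). Rgs5 was found in 79.1 to 94.6% of pericyte-like cells per library, in 6.13 to 14.2% of SMC-like cells and in 0.27 to 1.70% of Dpp4+ cells. The unthinned shares were 87.0 to 95.2%, 8.99 to 22.4% and 0.995 to 3.76%, respectively. The Dpp4+ class was taken to lack Rgs5 and serves as a background, but whether its UMIs were free RNA was not tested. Rgs4 was found in 32.6 to 75.8% of thinned pericyte-like cells, in 51.1 to 65.6% of SMC-like and in 0.37 to 0.67% of Dpp4+ cells, and unthinned in 54.3 to 82.5%, 74.6 to 89.5% and 0.73 to 1.74%. Counting intervals and floors given here cover counting error only.

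Ordered over all 8 classes by mean log2 level, Rgs5 ran from pericyte-like (mean over libraries 4496 CPM) to endothelial-like (338 CPM), SMC-like (139 CPM), Icam1+ (14.9 CPM) and Dpp4+ cells (8.80 CPM), and each step down was seen in 6 of 6 libraries. Rgs4 had SMC-like (562 CPM) and pericyte-like cells (589 CPM) in the first places without a clear order, then endothelial-like (38.9 CPM) and Icam1+ cells (8.003 CPM), each in 6 of 6 libraries. Rgs16 came highest in pericyte-like cells (288 CPM), in 5 of 6 libraries above the Schwann-like cells (79.7 CPM), and the step from endothelial-like (50.6 CPM) to Cd142+ cells (20.1 CPM) was seen in 6 of 6. Rgs3 did not separate its first places, since pericyte-like (88.3 CPM) and endothelial-like cells (84.7 CPM) differed by 0.01 ± 0.51 log2 units (SD, 6 libraries). Rgs2 was highest in immune-like cells (189 CPM), followed by SMC-like (89.5 CPM), endothelial-like (37.7 CPM) and Dpp4+ cells (18.1 CPM), with 6 of 6 libraries at each step. Rgs1 (198 CPM) and Rgs10 (270 CPM) were highest in immune-like cells, and Rgs17 in Cd142+ cells (9.71 CPM), again in 6 of 6 libraries. A two-sided exact sign-flip permutation test over 6 libraries cannot give a p below 0.03125, and adjusted over all 56 neighbouring pairs this smallest p became 0.0921, so no step could pass the threshold.

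**Figure D1:**
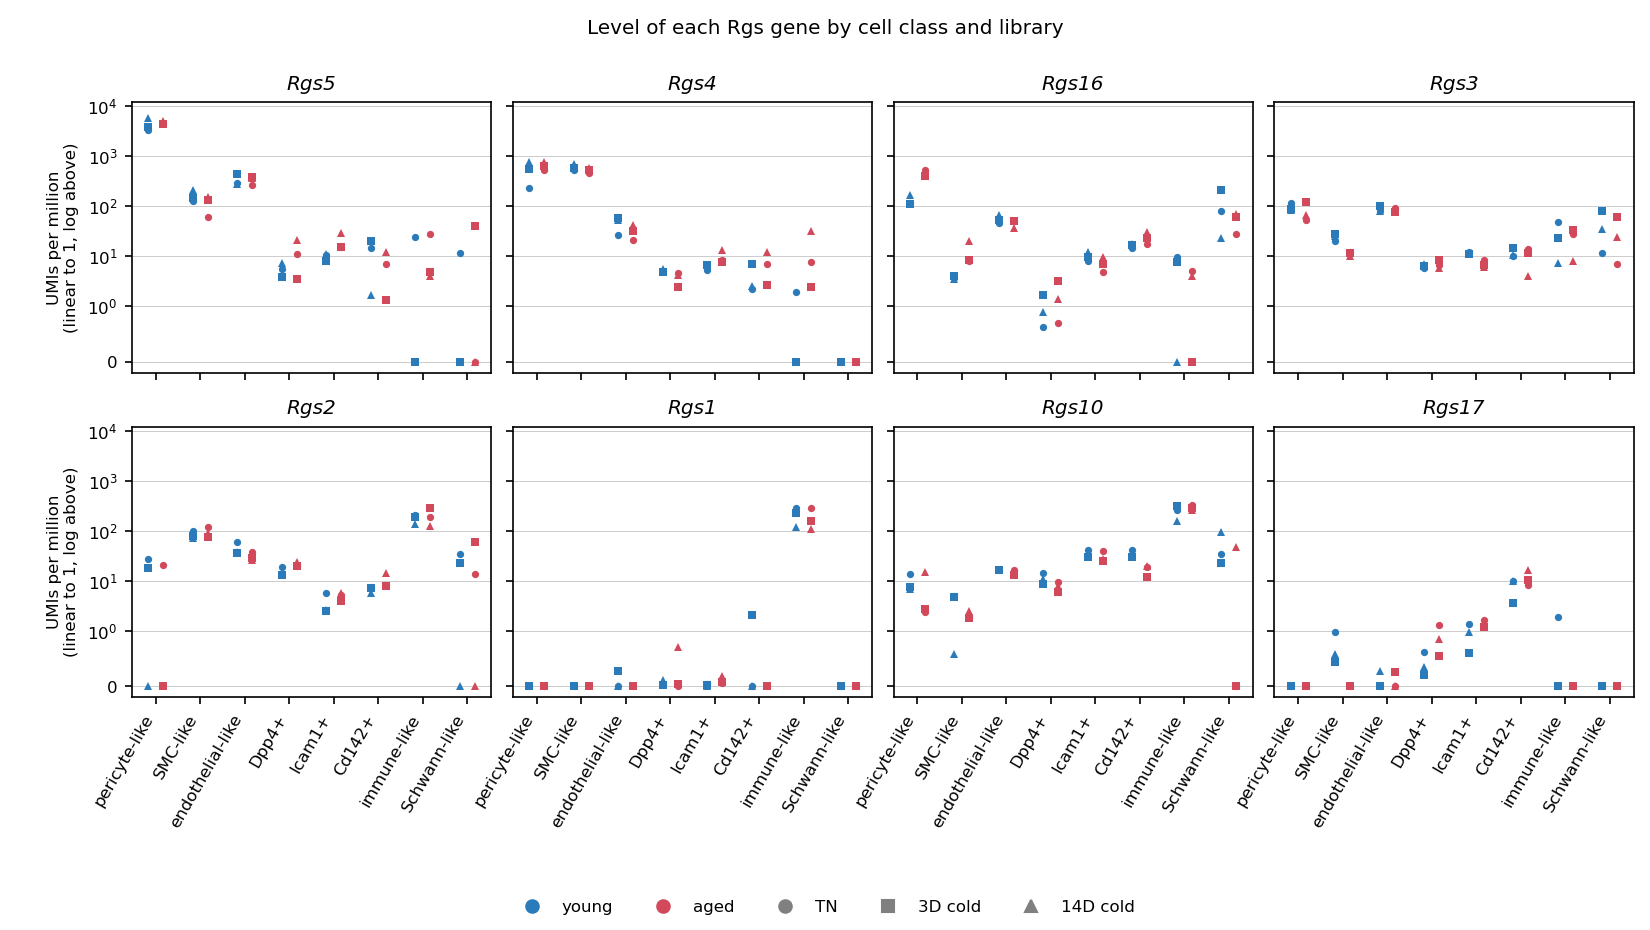
CPM of each class (y axis, linear up to 1 and logarithmic above) for each RGS gene in the 8 cell classes, with 1 point per library, young in blue and aged in red, and shapes for TN, 3D cold and 14D cold. Rgs5 and Rgs16 peak in pericyte-like cells, Rgs4 in both mural classes, and Rgs1 and Rgs10 in immune-like cells.

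With age, Rgs16 rose in mural cells at every temperature. In pericyte-like cells it stood at 116, 109 and 165 CPM in the young TN, 3D cold and 14D cold libraries and at 523, 411 and 402 CPM in the aged libraries, a mean of 130 ± 30.5 against 445 ± 67.5 CPM (SD, n = 3 each). The lowest aged library was above the highest young one. The log2 fold change was 1.86 ± 0.20 (SE, edgeR adjusted p = 8.6039e-13). In SMC-like cells the level was low, at 3.61, 3.94 and 3.46 CPM in the young and 7.92, 8.44 and 20.2 CPM in the aged libraries, from 81 UMIs in all, and the log2 fold change was 1.52 ± 0.36 (edgeR adjusted p = 0.0298). Over all mural cells Rgs16 rose by 1.85 ± 0.13 log2 units (edgeR adjusted p = 4.2474e-06), from 15.97, 31.6 and 34.1 CPM in the young to 78.4, 98.8 and 101 CPM in the aged libraries.

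Rgs16 was 1 of 2 members that changed with age in mural cells as a whole, where 6 members passed the filter on low counts, beside 4.3% of all 10393 genes called. It was the only 1 of 4 tested in pericyte-like cells, where 1.89% of 5399 genes were called, and 1 of 3 called among 5 tested in SMC-like cells, where 3.36% of 9461 genes were called. The call in mural cells was kept in 15 of 15 alternatives. In pericyte-like cells it was kept in 14 of 15 and lost under the stricter gate, which left 23 to 59 cells per library (log2 fold change 1.52, edgeR adjusted p = 0.306). In SMC-like cells leaving out the young 3D cold, young 14D cold, aged TN, aged 3D cold or aged 14D cold library ended the call, with log2 fold changes of 1.71, 1.13, 1.78, 1.71 and 1.13 and edgeR adjusted p of 0.158, 0.0866, 0.0614, 0.148 and 0.0995.

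A larger share of pericyte-like cells held Rgs16 in the aged libraries. After thinning to 2000 UMIs, Rgs16 was found in 5 of 43, 9 of 94 and 8 of 74 pericyte-like cells of the young TN, 3D cold and 14D cold libraries, which is 11.6% (95% exact interval 3.89 to 25.1), 9.57% (4.47 to 17.4) and 10.8% (4.78 to 20.2). In the aged libraries it was found in 31 of 117, 21 of 90 and 12 of 33 cells, which is 26.5% (18.8 to 35.5), 23.3% (15.1 to 33.4) and 36.4% (20.4 to 54.9). The aged shares all lay above the young ones, while Dpp4+ cells showed 0.099 to 0.28% and unthinned pericyte-like cells 13.1 to 32.5%. Among unthinned pericyte-like cells with the gene, the mean was 2.78, 3.31 and 4.08 UMIs per cell in the young and 6.40, 4.48 and 4.08 in the aged libraries, so it was higher with age at TN and 3D cold and level at 14D cold. A few cells carried much of it, since the top 3 cells of a library held 53.5 to 64% of its pericyte-like Rgs16 UMIs in the young and 30.8 to 56.6% in the aged libraries. Without those 3 cells in each library the level was 46.2, 52.4 and 67.2 CPM in the young and 374, 291 and 187 CPM in the aged libraries. The cells with the gene numbered 9, 13 and 12 in the young and 35, 33 and 13 in the aged libraries. Taking away a fixed 3 cells thus weighed more on the young libraries than on the aged TN and 3D cold ones. For that reason the trimmed levels cannot decide how much of the age difference a few cells carried.

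Other measurements moved with Rgs16 in pericyte-like cells. Of 14 genes known to rise when tissue is dissociated with enzymes, 8 rose with age there (Ier3, Atf3, Hspa1a, Junb, Nr4a1, Fosb, Egr1 and Zfp36), and the summed level of all 14 was 19460 to 27533 CPM in the young and 31650 to 36216 CPM in the aged libraries. In SMC-like cells 1 of the 14 rose (Nr4a1) and 3 fell (Hspa1b, Hspa1a and Ier2), with sums of 18758 to 20614 and 16794 to 22776 CPM, and Rgs16 was higher in every aged library there as well. Summed over the same 14 genes, pericyte-like cells with Rgs16 stood at 34407, 27691 and 27297 CPM and those without it at 25003, 26684 and 17628 CPM in the young libraries. In the aged libraries the sums were 40580, 36147 and 43381 CPM with and 30958, 36255 and 27087 CPM without it, so the sum was higher beside Rgs16 in every library but the aged 3D cold one. Red blood cell genes summed to 22495 CPM in the pericyte-like cells of the aged 3D cold library and to 0 to 25.3 CPM in those of the other 5 libraries. Endothelial marker genes kept out of the gate had sums of 167 to 239 CPM in the young and 184 to 288 CPM in the aged libraries, ASPC markers 4456 to 5569 and 3509 to 4587 CPM, and immune markers 10.1 to 15.2 and 8.33 to 21.0 CPM. Cells with markers of a second class were 21.7 to 27.3% of the pericyte-like cells in the young and 5.88 to 13.5% in the aged libraries, and without them the Rgs16 log2 fold change was 1.92 ± 0.22 (edgeR adjusted p = 3.035e-05). The part of dissociation and of red blood cell RNA in the Rgs16 result was not tested.

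**Figure D2:**
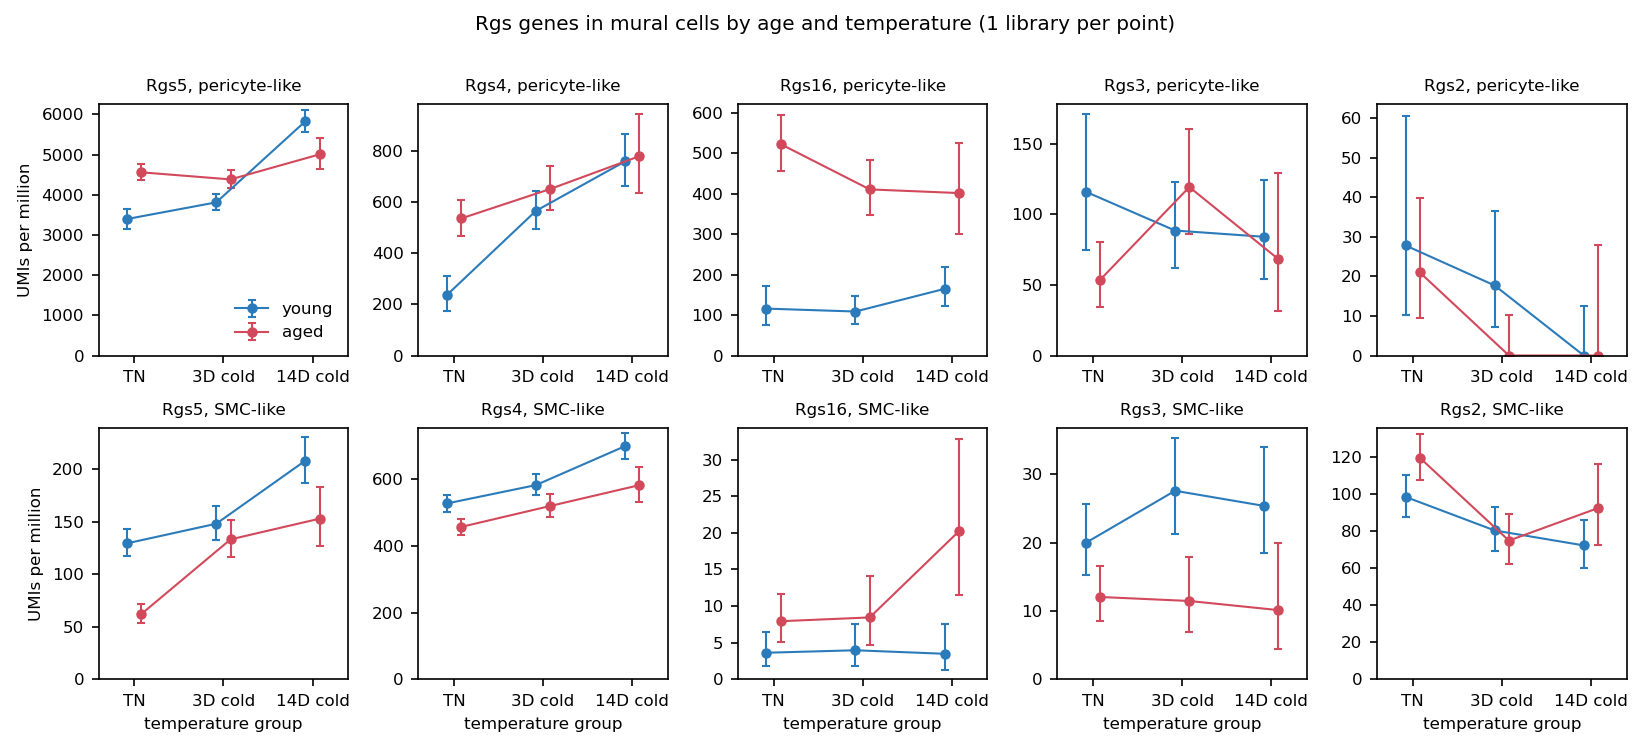
CPM (y axis) of Rgs5, Rgs4, Rgs16, Rgs3 and Rgs2 in pericyte-like cells (top) and SMC-like cells (bottom) by temperature group (x axis), with 1 library per point, young in blue, aged in red, lines joining the libraries of one age and bars for the exact Poisson 95% interval of the count. Rgs16 in pericyte-like cells lies at 109 to 165 in the young and 402 to 523 in the aged libraries.

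Rgs3 was lower with age in SMC-like cells. Rgs3, a family member with long and short forms, stood at 19.99, 27.6 and 25.4 CPM in the SMC-like cells of the young and at 12.04, 11.5 and 10.1 CPM in those of the aged libraries, with no overlap between ages. It fell by 1.00 log2 units (SE 0.21, edgeR adjusted p = 0.0158). In pericyte-like cells Rgs3 was 116, 88.6 and 84.1 CPM in the young and 53.7, 119 and 68.2 CPM in the aged libraries, which overlapped, with a log2 fold change of -0.14 ± 0.27 (edgeR adjusted p = 0.918). The SMC-like call was kept in 9 of 13 alternatives, and leaving out the young 3D cold library or the aged 3D cold library ended it (log2 fold change -0.88 in both, edgeR adjusted p = 0.187 and 0.175), as did the stricter gate (edgeR adjusted p = 0.115) and thinning (edgeR adjusted p = 0.0585). Over all mural cells the log2 fold change of Rgs3 was -0.55 ± 0.14 (edgeR adjusted p = 0.0457), but this call was kept in only 3 of 14 alternatives, and leaving out any 1 of the 6 libraries ended it, with edgeR adjusted p of 0.0944, 0.219 and 0.0903 without the young TN, 3D cold and 14D cold libraries and of 0.0746, 0.272 and 0.0869 without the aged ones.

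Rgs5 was lower with age in SMC-like cells by 0.55 log2 units, with a log2 fold change of -0.55 ± 0.13 (edgeR adjusted p = 0.0329), and the aged library was the lower one at each temperature although the ranges of 129 to 208 and 62.1 to 153 CPM overlapped. The call was lost without either TN library, since leaving out the young TN or the aged TN library gave -0.28 in both cases (edgeR adjusted p = 0.279 and 0.310). It was kept in 8 of 15 alternatives. The stricter gate (log2 fold change -0.70, edgeR adjusted p = 0.109) and thinning (-0.35, edgeR adjusted p = 0.227) were among those that ended it. In pericyte-like cells, the main site of Rgs5, the log2 fold change was 0.20 ± 0.15 (edgeR adjusted p = 0.669). Rgs4 had a log2 fold change of 0.50 ± 0.18 in pericyte-like (edgeR adjusted p = 0.163) and of -0.20 ± 0.06 in SMC-like cells (edgeR adjusted p = 0.109). Over all mural cells the values were 0.18 ± 0.13 for Rgs5 (edgeR adjusted p = 0.519), -0.16 ± 0.06 for Rgs4 (edgeR adjusted p = 0.167), 0.15 ± 0.12 for Rgs2 (edgeR adjusted p = 0.545) and -0.79 ± 0.43 for Rgs10 (edgeR adjusted p = 0.362), none of which passed.

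Levels over the whole mural gate also moved with its makeup. Pericyte-like cells were 8.16% (95% exact interval 6.03 to 10.7), 20.5% (17.0 to 24.4) and 17.6% (14.3 to 21.4) of mural cells in the young and 15.3% (13.0 to 17.9), 24.1% (20.3 to 28.3) and 19.4% (14.2 to 25.5) in the aged TN, 3D cold and 14D cold libraries. They carried 40.5 to 69.4% of the Rgs5 UMIs of the mural gate, 40.3 to 63.8% of those of Rgs16 and 2.63 to 18.3% of those of Rgs4. Rgs5 over the whole gate stood at 466, 837 and 1166 CPM in the young and 743, 976 and 877 CPM in the aged libraries. The young TN library, with the smallest share of pericyte-like cells, also had the lowest mural Rgs5. The part of this share in the values over the whole gate was not tested.

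With cold, Rgs4 was called in pericyte-like cells, where its level rose by 0.68 ± 0.21 log2 units at 3D cold and 0.98 ± 0.22 at 14D cold against TN (SE, joint test, edgeR adjusted p = 0.0126), 1 of 4 members tested beside 1.07% of all genes called. The young TN library, at 237 CPM, was the lowest of the 6. Without it the 14D cold difference was 0.54 (edgeR adjusted p = 0.769), without the young 3D cold library 0.99 (0.0916), without the young 14D cold library 0.65 (0.176) and without the aged 3D cold library 0.98 (0.0715), and the call was lost in each case. Leaving out the aged TN library gave 1.53 (edgeR adjusted p = 0.000182), and 6 of 15 alternatives kept the call.

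Rgs5 rose in SMC-like cells, by 0.57 ± 0.16 log2 units at 3D cold and 0.93 ± 0.16 at 14D cold (SE, joint test, edgeR adjusted p = 0.0279), 1 of 5 members tested beside 0.941% of all genes. Both ages rose from TN to 14D cold, from 129 to 208 CPM in the young and from 62.1 to 153 CPM in the aged libraries. The call was kept in 12 of 15 alternatives. Leaving out the young 3D cold library ended it (edgeR adjusted p = 0.0529), as did the stricter gate and a model without the age term. The part of pericyte RNA or of misplaced cells in the SMC-like Rgs5 differences, by age or by temperature, was not tested. In pericyte-like cells, where Rgs5 is highest, the values were 0.06 ± 0.18 and 0.40 ± 0.18 (edgeR adjusted p = 0.584). Rgs16 had values of -0.25 ± 0.23 and -0.08 ± 0.25 in pericyte-like cells (edgeR adjusted p = 0.942).

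Over the whole mural gate, 2 of 6 members tested were called by temperature beside 1.98% of all genes. Rgs2 stood at 92.5, 63.9 and 57.8 CPM in the young TN, 3D cold and 14D cold libraries and at 96.3, 59.2 and 90.4 CPM in the aged libraries. It was lower at both cold times, by -0.63 ± 0.13 and -0.46 ± 0.15 log2 units (edgeR adjusted p = 0.0495). The aged 14D cold library stayed near the TN level. In SMC-like cells alone Rgs2 was not called by temperature in the reported fit, and it was called in 4 of 15 fits. The part of the makeup of the gate in the Rgs2 difference was not tested. The call over the whole gate was at the threshold and was kept in 7 of 15 alternatives, and leaving out the young TN, young 3D cold or aged 3D cold library ended it (edgeR adjusted p = 0.217, 0.207 and 0.537). Rgs4 was higher by 0.19 ± 0.07 at 3D cold and 0.41 ± 0.08 at 14D cold (edgeR adjusted p = 0.0332), with 14D cold above TN at both ages (699.9 against 499.8 CPM in the young and 592 against 452 CPM in the aged libraries). Leaving out the young TN, young 3D cold, young 14D cold or aged 3D cold library ended this call (edgeR adjusted p = 0.128, 0.2004, 0.0649 and 0.302). Rgs5 had values of 0.57 ± 0.16 and 0.77 ± 0.16 (edgeR adjusted p = 0.0561), just outside the threshold.

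Endothelial-like cells, which touch the pericytes, held the next highest Rgs5 level, and it was far higher in the endothelial-like cells that also held mural transcripts. In endothelial-like cells with no UMI of any of the 10 mural markers, Rgs5 was 85.1, 78.4 and 71.0 CPM in the young and 87.4, 115 and 94.2 CPM in the aged libraries. In the 11.2 to 21.1% of endothelial-like cells with at least 1 such UMI it was 849, 1086 and 1014 CPM in the young and 1012, 1251 and 1439 CPM in the aged libraries. Cells with mural UMIs were also deeper, with medians of 3843 to 7099 UMIs against 2616 to 3219 in those without. ASPC-like cells with no mural UMI had 1.25 to 2.63 CPM in 5 libraries and 16.8 CPM in the shallow aged 14D cold library. Rgs5 in endothelial-like cells without mural markers was above that level in every library. The ASPC-like cells were deeper, with medians of 6798 to 9417 UMIs in those 5 libraries and 3024 in the aged 14D cold one. The part of depth and of free RNA in this difference was not tested.

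Rgs4 was also far higher in the endothelial-like cells with mural UMIs. It stood at 3.23, 11.4 and 11.5 CPM in the young and 2.59, 2.30 and 2.26 CPM in the aged libraries once endothelial-like cells with mural UMIs were set aside, against 89.4 to 206 CPM in cells with them. Rgs3 showed no such split, at 80.0 to 96.8 CPM without and 66.1 to 104 CPM with mural UMIs, and the ranges of Rgs2 (20.9 to 66.5 and 24.4 to 46.9 CPM) and Rgs10 (11.5 to 18.4 and 12.5 to 22.1 CPM) overlapped as well. Rgs16 lay between, at 24.3 to 55.5 CPM without and 66.3 to 105 CPM with them. The split is a description with no test, and the part of mural RNA or of mixed cells in these levels was not tested.

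**Figure D3:**
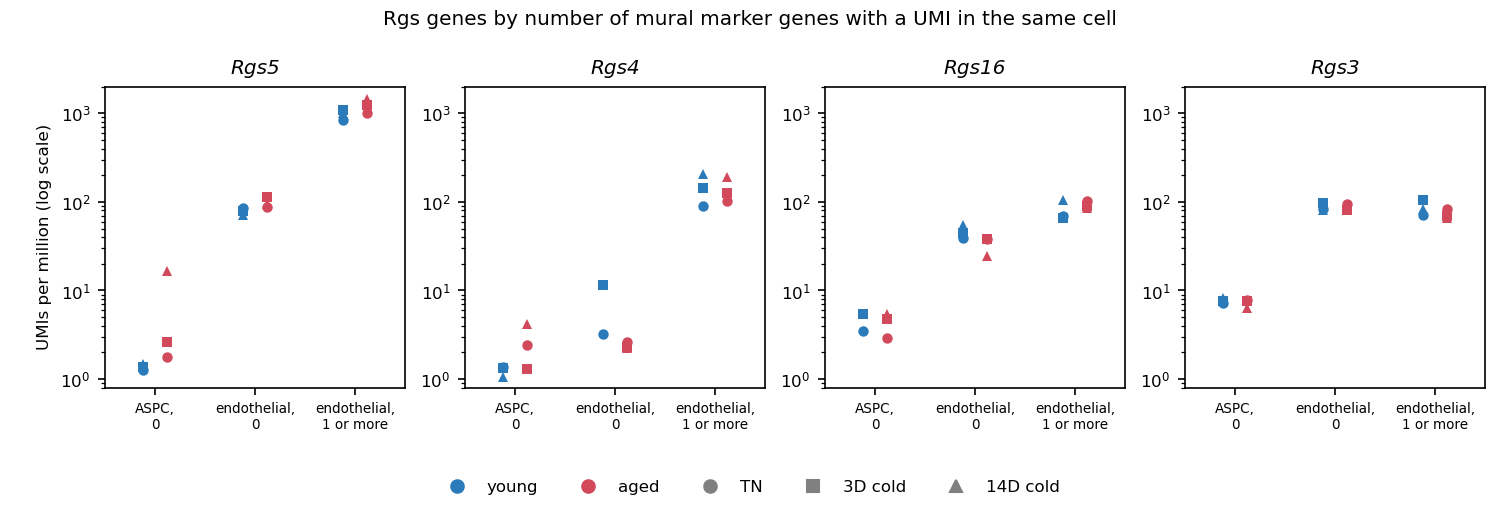
CPM (y axis, logarithmic) of Rgs5, Rgs4, Rgs16 and Rgs3 in ASPC-like cells with 0 mural markers and in endothelial-like cells with 0 or with 1 or more mural markers (x axis), with 1 point per library. Rgs5 lies at 71.0 to 115 and then 849 to 1439 in the endothelial-like cells, while Rgs3 lies in the same range in both.

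By age, no member was called in endothelial-like cells, where 6 were tested and 1.74% of 11362 genes were called. Rgs16 was at 47.2, 52.5 and 66.4 CPM in the young and 50.0, 50.3 and 37.0 CPM in the aged libraries, a log2 fold change of -0.18 ± 0.15 (edgeR adjusted p = 0.624). Whether the age difference of Rgs16 differed between mural and endothelial-like cells was not tested. Rgs2 (-0.49 ± 0.12, edgeR adjusted p = 0.0776) and Rgs4 (-0.49 ± 0.13, edgeR adjusted p = 0.0948) were the nearest to the threshold. By temperature, 1 of the 6 members was called beside 0.775% of all genes. Rgs4 stood at 26.3, 58.6 and 54.0 CPM in the young and 21.4, 31.7 and 41.5 CPM in the aged libraries and was higher by 0.90 ± 0.16 at 3D cold and 1.00 ± 0.17 at 14D cold (edgeR adjusted p = 0.0308). This call was lost when cells with markers of a second class were left out, with a larger 14D cold difference of 1.54 (edgeR adjusted p = 0.246), and without the young 14D cold library, with a difference of 1.12 (edgeR adjusted p = 0.0551), and was kept in 8 of 15 alternatives.

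In the ASPCs 9 age differences of members were called. In Icam1+ cells, the committed preadipocytes, 4 of 7 members tested changed with age beside 11.3% of 13566 genes. Rgs3 stood at 11.9, 11.05 and 11.8 CPM in the young and 8.27, 6.54 and 6.201 CPM in the aged libraries, which did not overlap, and fell by 0.72 log2 units (SE 0.11, edgeR adjusted p = 0.00661). This call was kept in 15 of 15 alternatives. Rgs16 went the opposite way from pericyte-like cells, at 7.88, 9.81 and 12.1 CPM in the young and 4.74, 6.96 and 9.43 CPM in the aged libraries, with a log2 fold change of -0.52 ± 0.11 (edgeR adjusted p = 0.0274). Leaving out the young TN, young 3D cold, aged TN or aged 3D cold library ended that call (edgeR adjusted p = 0.0766, 0.114, 0.0653 and 0.115), and it was kept in 7 of 15 alternatives.

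Rgs5 and Rgs4, the pericyte and mural genes, were higher in aged Icam1+ cells. Rgs5 was 10.5, 8.10 and 11.2 CPM in the young and 15.5, 15.2 and 28.7 CPM in the aged libraries, up by 0.95 ± 0.14 log2 units (edgeR adjusted p = 0.00704). Rgs4 was 5.33, 6.73 and 6.75 CPM in the young and 8.54, 7.63 and 13.0 CPM in the aged libraries, up by 0.60 ± 0.14 (edgeR adjusted p = 0.0365). Both calls were lost when cells with markers of a second class were left out, with larger log2 fold changes of 1.65 and 1.25 (edgeR adjusted p = 0.0990 and 0.0581), and that of Rgs4 also without the young TN, young 14D cold, aged TN or aged 14D cold library (edgeR adjusted p = 0.0682, 0.0818, 0.0669 and 0.0901). Mural marker genes kept out of the gate summed to 341 to 407 CPM in the young and 378 to 516 CPM in the aged Icam1+ libraries, with UMIs for 8 of 8 genes. Endothelial gate markers summed to 16.4 to 30.6 and 22.2 to 131 CPM there. Endothelial genes kept out of the gate summed to 303 to 405 and 266 to 366 CPM. The Icam1+ markers themselves summed to 11498 to 13446 CPM in Icam1+ cells. They summed to 41565 to 62674 CPM in endothelial-like and to 21514 to 39961 CPM in pericyte-like cells. The part of mural or endothelial RNA in these results was not tested. Over the whole ASPC gate, which is wider than the 3 classes, cells with no mural UMI held 1.25 to 2.63 CPM of Rgs5 in 5 libraries. They held 16.8 CPM in the aged 14D cold library, the one with the highest Icam1+ value. These values are not of Icam1+ cells alone.

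In Dpp4+ cells 4 of 7 members tested changed with age beside 17.2% of 13540 genes. Rgs10 stood at 14.1, 8.75 and 10.9 CPM in the young and 9.39, 5.92 and 8.01 CPM in the aged libraries, lower in the aged library at each temperature, with a log2 fold change of -0.56 ± 0.09 (edgeR adjusted p = 0.00188), and 14 of 15 alternatives kept the call. Rgs2 was 19.0, 13.2 and 13.0 CPM in the young and 19.7, 20.1 and 23.5 CPM in the aged libraries (0.48 ± 0.12, edgeR adjusted p = 0.0204), and the call was lost without the young 3D cold, aged 3D cold or aged 14D cold library (edgeR adjusted p = 0.127, 0.126 and 0.0831). Rgs5, for which this class served as a background above, was 5.54, 3.84 and 7.44 CPM in the young and 11.02, 3.504 and 21.4 CPM in the aged libraries (0.90 ± 0.22, edgeR adjusted p = 0.0181). Without the aged 14D cold library, the shallow one, the Rgs5 value was 0.52 (edgeR adjusted p = 0.124), and without the young 14D cold library it was 0.52 as well (edgeR adjusted p = 0.00626). The 8 mural genes kept out of the gate summed to 209 to 293 CPM in the young and 153 to 277 CPM in the aged Dpp4+ libraries, and the part of free RNA in the Rgs5 result was not tested. Rgs17 was counted with only 102 UMIs in this class and had a log2 fold change of 1.21 ± 0.31 (edgeR adjusted p = 0.0237), which did not pass without any 1 of the 6 libraries, with edgeR adjusted p of 0.0870, 0.106 and 0.0585 without the young TN, 3D cold and 14D cold libraries and of 0.0871, 0.114 and 0.0971 without the aged ones.

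In Cd142+ cells 1 of 4 members tested was called by age beside 5.97% of 7751 genes. Rgs10 was 40.7, 30.4 and 30.7 CPM in the young and 19.1, 11.8 and 20.2 CPM in the aged libraries, which did not overlap, with a log2 fold change of -0.98 ± 0.28 (edgeR adjusted p = 0.0304). It was thus lower with age in Cd142+ and Dpp4+ cells, while in Icam1+ cells its value was -0.18 ± 0.07 (edgeR adjusted p = 0.130). The Cd142+ call was lost without the young TN, young 3D cold, aged TN or aged 3D cold library (edgeR adjusted p = 0.116, 0.245, 0.126 and 0.256). Rgs17 was counted with 48 UMIs in Cd142+ cells, its highest class, at 9.89, 3.53 and 9.96 CPM in the young and 8.21, 10.5 and 16.2 CPM in the aged libraries, and did not pass the filter on low counts.

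**Figure D4:**
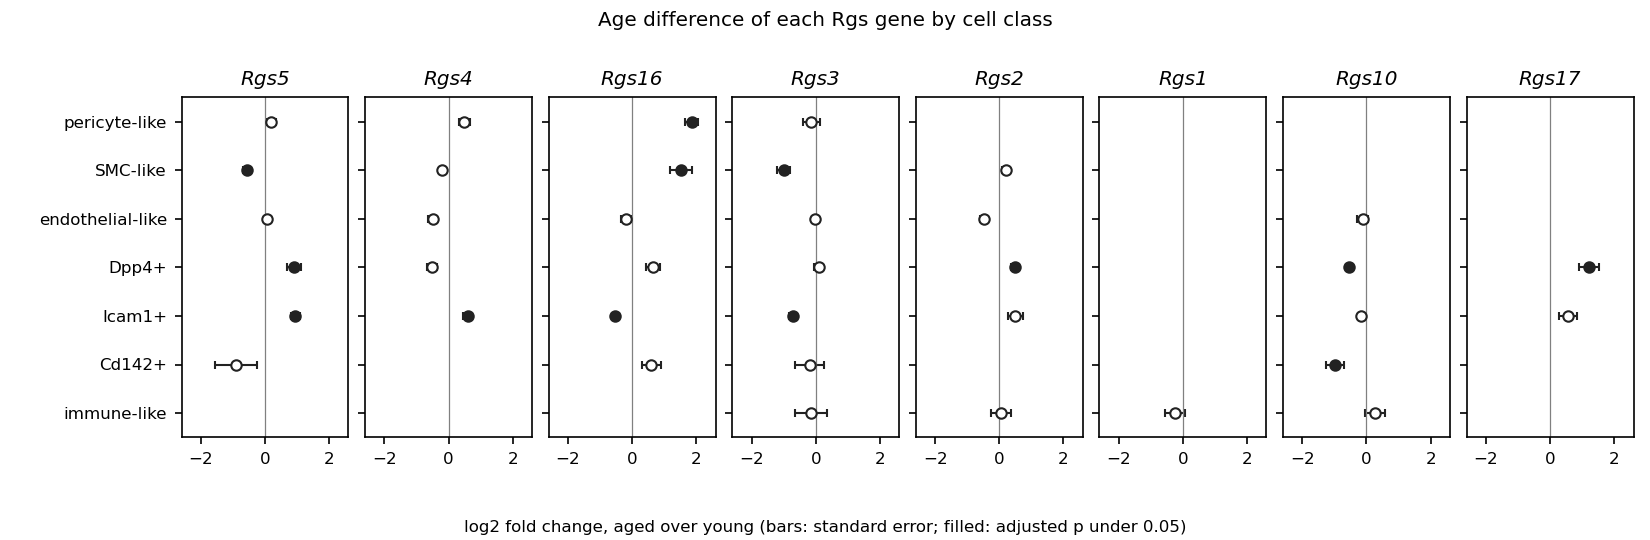
Log2 fold change of aged over young (x axis) for each RGS gene in the 7 tested classes, mural cells being shown as their pericyte-like and SMC-like parts (y axis), with bars for the standard error and filled points for an edgeR adjusted p under 0.05. Members without a point did not pass the filter on low counts. Rgs16 is positive in both mural classes (1.86 and 1.52) and negative in Icam1+ cells (-0.52).

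Temperature differences in the ASPCs were called for 3 of 7 members in Dpp4+ cells, beside 7.41% of all genes, for 1 of 7 in Icam1+ cells, beside 3.53%, and for none of 4 in Cd142+ cells, beside 1.06%. Rgs10 was lower in the cold in Dpp4+ cells (-0.69 ± 0.11 at 3D cold and -0.28 ± 0.11 at 14D cold, edgeR adjusted p = 0.0120) and in Icam1+ cells (-0.54 ± 0.08 and -0.47 ± 0.08, edgeR adjusted p = 0.0228). In Icam1+ cells it went from 41.8 CPM at TN to 30.5 and 31.6 CPM in the young and from 40.2 to 24.7 and 27.6 CPM in the aged libraries, so both cold levels lay below TN at both ages. The Dpp4+ call was lost without the young or the aged 3D cold library (edgeR adjusted p = 0.123 and 0.0790), and the Icam1+ call without the young 3D cold, aged TN or aged 3D cold library (0.0749, 0.102 and 0.101). Rgs16 was higher in Dpp4+ cells at 3D cold by 1.76 ± 0.29 and at 14D cold by 0.75 ± 0.32 (edgeR adjusted p = 0.0121), at 0.62, 1.70 and 0.90 CPM in the young and 0.70, 3.18 and 1.42 CPM in the aged libraries, with the peak at 3D cold at both ages. That call was lost without the young or the aged 3D cold library (edgeR adjusted p = 0.0507 and 0.125), and with each cell thinned to 2000 UMIs the 3D cold difference was 0.83 (edgeR adjusted p = 0.628). Rgs5 in Dpp4+ cells changed by -1.07 ± 0.29 at 3D cold and 0.74 ± 0.25 at 14D cold (edgeR adjusted p = 0.00998). Its 3D cold value ran from -1.79 without the young 3D cold library to -0.42 without the aged 3D cold library and turned to 0.58 (edgeR adjusted p = 0.00911) when cells with markers of a second class were left out.

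Immune-like cells were what CD45 depletion had left, 29 to 114 cells per library. Rgs1, a brake on chemokine receptor signals in lymphocytes, was counted with 511 UMIs there, at 290, 225 and 117 CPM in the young TN, 3D cold and 14D cold libraries and 288, 160 and 108 CPM in the aged libraries. It was lowest at 14D cold at both ages. By marker UMIs, the 257 cells with more lymphoid UMIs held 86 Rgs1 UMIs (72.9 CPM). The 132 cells with more myeloid UMIs held 153 (159 CPM), and the 55 cells with equal counts held 272 (734 CPM). Equal counts can also mean no UMI of either kind, so the split placed these 55 cells in neither part. Among the cells it placed, Rgs1 was lower in the lymphoid than in the myeloid part. Because 272 of the 511 UMIs lay in cells that were not placed, the split cannot decide which part held the most Rgs1. In mural cells no Rgs1 UMI was counted, which allows 0.67 CPM in the deepest and 2.77 CPM in the shallowest library. Rgs10 stood at 265, 314 and 158 CPM in the young and 337, 284 and 265 CPM in the aged libraries, and Rgs2 at 212, 190 and 139 CPM and 189, 281 and 124 CPM. None of the 4 members tested was called by age, beside 0.0699% of 5719 genes, or by temperature, beside 0% of them. For temperature, edgeR called 0 genes of all tested with 143 at an unadjusted p under 0.05, and DESeq2 called 3. The temperature values of Rgs1 were -0.70 ± 0.37 and -1.41 ± 0.38 (edgeR adjusted p = 0.9997), so the lower level at 14D cold did not pass.

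The partners of RGS proteins were followed through 6 lists of 109 genes. By age in mural cells, none of 4 tested other RGS family genes, 11 G alpha subunits, 7 G beta and gamma subunits or 12 Gq effectors passed. Of 20 receptors 2 rose, and of 15 genes of cGMP and cAMP signalling 1 rose. The list medians lay between -0.20 and 0.05 log2 units, against 0.01 over all genes tested. Adra2a, the alpha-2A adrenergic receptor, which couples to Gi, was 1.03, 1.92 and 1.15 CPM in the young and 3.13, 4.49 and 11.99 CPM in the aged libraries (2.02 ± 0.49, edgeR adjusted p = 0.0333). In pericyte-like cells it was 13.9, 7.59 and 6.73 CPM in the young and 7.004, 5.55 and 7.58 CPM in the aged libraries, and in SMC-like cells at most 3.79 CPM, so the 11.99 CPM of the aged 14D cold library was above the level of both sub-classes in that library. Adrb1, the beta-1 adrenergic receptor, was 20.1, 7.67 and 8.04 CPM in the young and 32.6, 10.6 and 12.9 CPM in the aged libraries (0.65 ± 0.17, edgeR adjusted p = 0.0425). Adcy3, an adenylyl cyclase, was 15.7, 28.1 and 18.8 CPM in the young and 27.7, 37.6 and 32.3 CPM in the aged libraries (0.66 ± 0.14, edgeR adjusted p = 0.0212).

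All 3 of these age calls were lost without either 3D cold library, although the differences were not smaller. Without the young 3D cold library the log2 fold changes were 2.47 for Adra2a, 0.69 for Adrb1 and 0.80 for Adcy3 (edgeR adjusted p = 0.154, 0.173 and 0.106), and without the aged 3D cold library the edgeR adjusted p was 0.221, 0.230 and 0.169. Over all genes tested, the age calls in mural cells fell from 447 to 50 without the young and 17 without the aged 3D cold library. Adra2a was also lost without the young or aged 14D cold library (0.188 and 0.216), and Adrb1 (0.395 and 0.402) and Adcy3 (0.0954 and 0.0770) without the young or aged TN library. By temperature, 1 gene of all lists was called in mural cells, Adrb1, which fell at 3D cold (-1.53 ± 0.20) and 14D cold (-1.37 ± 0.22, edgeR adjusted p = 0.00143), from 20.1 to 7.67 and 8.04 CPM in the young and from 32.6 to 10.6 and 12.9 CPM in the aged libraries. TN was the highest at both ages. That call was lost without the aged 3D cold library (edgeR adjusted p = 0.132). In SMC-like cells Adcy3 (0.85 ± 0.18, edgeR adjusted p = 0.0192) was called by age and Adrb1 by temperature (-1.44 ± 0.26 and -1.65 ± 0.32, edgeR adjusted p = 0.0122), and each was lost without the young 3D cold library (0.161 and 0.132) and without the aged 3D cold library (0.148 and 0.106). In pericyte-like cells no gene of the 6 lists was called by age or temperature.

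Between the mural classes 51.9% of all 8218 genes tested were called, and the counts of the lists are to be read against that share. Of 15 receptors tested, 5 were higher and 7 lower in pericyte-like than in SMC-like cells, with a list median of -0.55 log2 units against 0.03 over all genes. Agtr1a, the angiotensin II type 1 receptor, was at 233 to 372 CPM in pericyte-like and 9.64 to 13.9 CPM in SMC-like cells (4.24 ± 0.13, edgeR adjusted p = 2.1003e-19). Ednrb, the endothelin B receptor, was at 497 to 844 and 77.9 to 123 CPM (2.28 ± 0.15, edgeR adjusted p = 4.7055e-13). S1pr3, a sphingosine 1-phosphate receptor, lay the other way, at 65.0 to 202 CPM in pericyte-like and 466 to 537 CPM in SMC-like cells (-2.18 ± 0.16, edgeR adjusted p = 4.3992e-12). Tbxa2r, the thromboxane receptor, had no UMI in pericyte-like cells of any library and 9.64 to 20.2 CPM in SMC-like cells. Higher on the pericyte-like side, as were Rgs5 and Rgs16, were Agtr1a, Ednrb, Ptger2 (2.82), F2r (2.44) and Ptgir (1.46). Receptors higher on the SMC-like side, as was Rgs2, included S1pr3, Tbxa2r and Ptger3 (-4.99 ± 0.40, edgeR adjusted p = 5.273e-11). The alpha-1 adrenergic receptors Adra1a (-3.98 ± 0.41, edgeR adjusted p = 5.8067e-09) and Adra1b (-3.03 ± 0.40, edgeR adjusted p = 3.6146e-07) were higher there too. A link between RGS genes and receptors was not tested.

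Closer to the RGS proteins themselves, Rgs7bp, which anchors RGS proteins of the R7 type to membranes, was at 221 to 249 CPM in SMC-like and at most 3.37 CPM in pericyte-like cells (-7.92 ± 0.30, edgeR adjusted p = 1.3586e-17), and Rgs6 was lower in pericyte-like cells as well (-1.18 ± 0.24, edgeR adjusted p = 1.7466e-04). They were the 2 of 15 other RGS family genes that passed the filter in that comparison. Of 10 G alpha subunits, 1 was higher in pericyte-like cells (Gna13, 0.77) and 3 lower, a share below that of all genes (Gna14, -2.38, Gnao1, -2.26, and Gnaq, -0.62), and of 8 beta and gamma subunits 3 were higher (Gng2, 5.30, Gnb4, 0.95, and Gng11, 0.51) and 2 lower (Gng12, -1.01, and Gnb1, -0.46). With a limit on the mitochondrial share, which removed 86.4 to 97.9% of SMC-like cells, the Gnaq difference turned to 0.14, and the calls of Gng12 (-0.44, edgeR adjusted p = 0.225) and Gnb1 (-0.35, edgeR adjusted p = 0.139) were lost. Of 12 Gq effectors 3 were higher and 6 lower, and of 14 genes of cGMP and cAMP signalling 6 were higher, with Npr1, the atrial natriuretic peptide receptor, the furthest (3.80), and 8 lower, with Adcy5 the furthest (-3.75). Mylk of the first list and Gucy1b1 of the second are markers of the SMC-like and pericyte-like classes, so their differences are no findings. The genes of each list with the highest level in mural cells as a whole were Rgs7bp (187 ± 19.6 CPM, SD, n = 6), Gnas (1112 ± 65.1), Gng11 (618 ± 60.04), S1pr3 (449 ± 17.1), Mylk (1754 ± 159) and Prkar1a (612 ± 34.4).

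The genes whose mean log2 level over the 8 classes was most like that of each member were found among 9403 genes with at least 20 CPM in some class. For Rgs5 they were Pawr (Pearson r = 0.99), Znhit1 (0.99) and Slc4a11 (0.98), and for Rgs4 Ppp1r14a (0.99), Ppp1r3d (0.99) and Mrvi1 (0.98), of which Ppp1r14a inhibits myosin phosphatase and Mrvi1 is a target of cGMP-dependent kinase in smooth muscle. For Rgs16 they were Eif4e3 (0.96), Tmco1 (0.96) and Ociad1 (0.95), for Rgs3 2810454H06Rik (0.98), Ssb (0.98) and Vps36 (0.97), and for Rgs2 Iqgap1 (0.96), Tnfrsf11a (0.94) and Map2k2 (0.94). For the genes of immune-like cells they were Tagap, Cd8a and Fcrls (1.00 each) for Rgs1 and N4bp2l1 (0.98), Snx8 (0.97) and Nans (0.97) for Rgs10. Rgs17 stayed under 20 CPM in every class and was not compared. Each r is over 8 points from the same 6 libraries, so a gene that is high in a single class matches any other such gene.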

How the data were processed

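Inguinal stromal vascular cells were profiled with 10x Chromium 3′ libraries. The authors aligned the reads to mm10 with Cell Ranger (3.1.0 in the matrix headers) and deposited raw UMI counts per gene and cell barcode. From these counts, the 67282 of 68103 barcodes with more than 200 genes were classed by marker counts with no clustering, and the gate was set after marker counts had been seen. Barcodes with markers of a second class were kept as possible doublets, and no mitochondrial limit was set.

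UMIs were summed per library and class and tested with edgeR 4.0.16 in R 4.3.3 (quasi-likelihood F test, TMM, filterByExpr, terms for temperature and age, Benjamini-Hochberg over all genes, threshold 0.05) in classes with at least 20 cells in every library. Schwann-like cells were not tested. Temperature was tested jointly over 3D and 14D cold, and mural classes were compared with the library as a block. Tests were checked on simulated data. Alternatives were other scaling, no filter, a model without the other factor, a stricter gate, barcodes of at least 2000 UMIs, doublets left out, thinning to 2000 UMIs, each library left out, DESeq2 1.42.0, and a mitochondrial limit chosen after seeing the data. A temperature value under an alternative is that of the time with the larger difference in the reported fit. For age, a library left out leaves the other library of its temperature without weight. Leaving out the young or the aged library of a temperature thus gives nearly the same age difference, and these alternatives are not independent. The members, lists and tests were chosen with earlier results of these data known. Pathway genes were named if they passed in mural cells (at most 10 per list, largest first) or had the highest level of their list. The results of 1 gene of the receptor list in mural cells are not reported here.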

Additional observations from a re-analysis of the deposited data

Results flagged for a closer look

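For 4 members the aged library was above the young one at all 3 temperatures in some classes and below it at all 3 in others, as the mean log2 ratio of CPM shows. The difference between classes was not tested. Rgs4 had mean ratios of 0.47 in pericyte-like and 0.60 in Icam1+ cells and of -0.21 in SMC-like, -0.52 in endothelial-like and -0.50 in Dpp4+ cells. Rgs5 had 0.94 in Icam1+ and -0.55 in SMC-like cells. Rgs16 had 1.79 in pericyte-like, 0.58 in Dpp4+ and 0.53 in Cd142+ cells against -0.53 in Icam1+ cells. Rgs2 had 0.51 in Dpp4+ and -0.52 in endothelial-like cells.

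Barcodes that met no gate were outside every comparison and also held Rgs5, at 437 to 635 CPM, which was 18.2 to 25.1% of all Rgs5 UMIs of a library. They were 3.54 to 8.44% of barcodes, with medians of 1158 to 2001 UMIs.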

How the results depend on the processing

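Over 28 called member results, 406 of 407 alternative fits kept the direction and 285 passed the threshold. Rgs5 by temperature in Dpp4+ cells turned from -1.07 to 0.58 with possible doublets left out, and among the partners Adcy3 by age in mural cells turned from 0.66 to -0.13 and Gnaq between mural classes from -0.62 to 0.14 with the mitochondrial limit. The cause was not tested. The 6 age calls in mural classes became 3 without the temperature term, 1 under the stricter gate, 3 after thinning, 2 with the mitochondrial limit and 2 by DESeq2, and 3 to 5 with a library left out. The 9 age calls in other classes became 1 without the temperature term, 4 after thinning and 4 by DESeq2, and 5 to 9 with a library left out. The 4 temperature calls in mural classes became 8 with no filter, 0 without the age term, 1 under the stricter gate, 7 with doublets left out, 1 with the mitochondrial limit and 1 by DESeq2, and 0 to 8 with a library left out. The 5 in other classes became 12 with no filter, 0 without the age term, 2 after thinning and 3 by DESeq2, and 2 to 9 with a library left out. The 4 calls between mural classes stayed at 4 to 5 with a library left out. The replicate numbers of the 2 ages stand for the temperatures. With temperature as a term, the age test was already paired by temperature, and no other pairing was possible. Pericyte-like sums held only 131881 to 428323 UMIs per library, which limits what could be detected there.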
